A study of Homo sapiens with 4 samples.

Results

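The comparison described here is that of 2 NOS2KO clones of the SUM159 cell line, numbered 5 and 6 in the sample labels, with 1 RNA-sequencing library each. SUM159 is a triple-negative breast cancer cell line used as a model of metaplastic breast cancer (MpBC). NOS2 encodes inducible nitric oxide synthase (iNOS), the enzyme that makes nitric oxide from arginine in inflamed and tumor tissue. Both clones were derived from cells that received a double nickase plasmid against NOS2, survived puromycin and were picked by immunoblot for iNOS and by a nitrite/nitrate assay. A parental library with genotype Parental Control, not given the plasmid according to its label, and a library of NOS2KO clone 1 served as context. All 4 lines were grown in the same medium without a further treatment. Each knockout line is 1 clone, so a consequence of the knockout and what set the founding cell apart cannot be told apart. Levels are given in CPM, a gene's counts scaled to a fixed library size after TMM correction. Genes with at least 10 CPM in one of these clones were compared, which left 10019 of 57500 genes.

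The NOS2 gene (ENSG00000007171, chromosome 17 of GRCh38 from 27756766 to 27800499, minus strand) was at 2 counts in parental cells and 3 in clone 1, at 18 under the label of clone 5 and at 1 in clone 6. The parental cells were already at the floor of 3 counts, so the mRNA could not check which libraries carry the knockout. The library labelled clone 5 held the most NOS2 counts of the 4, and the name clone 5 below means the library that carries this label.

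Cells of one tumor line differ from each other in chromosome content, in promoter methylation and in which members of a multigene family they use, and such states are passed on when a single cell is grown into a clone. Metaplastic and mesenchymal breast cancer cells make much of their own extracellular matrix, which consists of collagens, adhesive glycoproteins and the enzymes that build and cut them. Cancer-testis antigens, which are normally limited to germ cells, and clustered protocadherins, adhesion proteins that neurons use in different combinations, are gene families that tumor lines can hold on or off from one lineage to the next.

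The counts on genes came to 101337366 in clone 5 and 97362293 in clone 6, and to 90467395 and 122171287 in the parental and clone 1 libraries. With 1 library a clone there was no replicate spread and no test of the clones. The interval given with a ratio is the exact 95% interval of the counts by the Clopper-Pearson method. It covers counting error only and says nothing of how far another culture of the same clone would lie. A gene was counted as different where the log2 ratio of clone 5 to clone 6 was above 1 or below -1, that is past 2-fold. All 6 mesenchymal markers (VIM, FN1, SPARC, CDH2, ZEB1 and AXL) were above 10 CPM in both clones. EPCAM, a marker of epithelial cells, had 19 counts in clone 5 and 28 in clone 6, while CDH1, another, had 44 and 8. Leukocyte markers summed to 110 CPM in clone 5 and 53.4 in clone 6, of which the phosphatase gene PTPRC gave 105 and 41.7 CPM. The monocyte marker CD14 went the other way with 456 counts in clone 5 and 1118 in clone 6, and CD3E had 8 counts and 0. Fibroblast markers summed to 766 and 1040 CPM, most of it from PDGFRB, at 563 CPM in both, and PDGFRA, at 181 and 456. LUM, a fibroblast proteoglycan, went the other way with 706 counts in clone 5 and 12 in clone 6. Luminal epithelial markers summed to 1303 and 875 CPM, most of it from KRT8, at 806 and 525, and KRT18, at 467 and 326. FOXA1 was nearly equal, at 24.1 CPM in clone 5 and 22.1 in clone 6. GATA3 had 475 counts and 159, and ESR1 had 79 and 26, less than 1 CPM in both clones. PGR had 3 counts and 0, and KRT19 had 1 and 2. Basal markers summed to 189 and 154 CPM, but KRT17 had 1019 counts in clone 5 and 190 in clone 6, and KRT5 had 114 and 5. MYLK and OXTR went the other way. Endothelial and adipocyte markers summed to at most 14.7 and 0.816 CPM. Of the endothelial markers, CDH5 had 372 counts in clone 5 and 16 in clone 6, VWF had 405 and 212, and KDR had 33 and 2. PECAM1 went the other way with 753 and 852. What part such genes had in the differences below was not tested.

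Of the 10019 genes compared, 492 (4.91%) differed past 2-fold, 245 (2.45%) with the higher level in clone 5 and 247 (2.47%) with the higher level in clone 6. The median log2 ratio was -0.03, the quartiles were -0.26 and 0.21, and 79.7% of the genes lay within 0.5 of equality on the log2 scale. Past 4-fold there were 75 genes higher in clone 5 and 60 higher in clone 6, and past 16-fold there were 26 and 7. For 213 genes higher in clone 5 and 207 higher in clone 6 the whole interval lay beyond 2-fold. Just inside the threshold, 68 genes had a ratio between 2 and 2.1-fold, and just outside it, 98 had a ratio between 1.9 and 2-fold. Every gene past 2-fold had more than 3 counts in the lower clone, the lowest count being 12. Protein-coding genes made up 470 of the 492, and of 137 long noncoding RNAs compared 17 were past 2-fold. The same count for clone 1 against clone 5 was 16.1% and against clone 6 15.9%, so clones 5 and 6 were the closest pair of the 4 libraries.

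**Figure D1:**
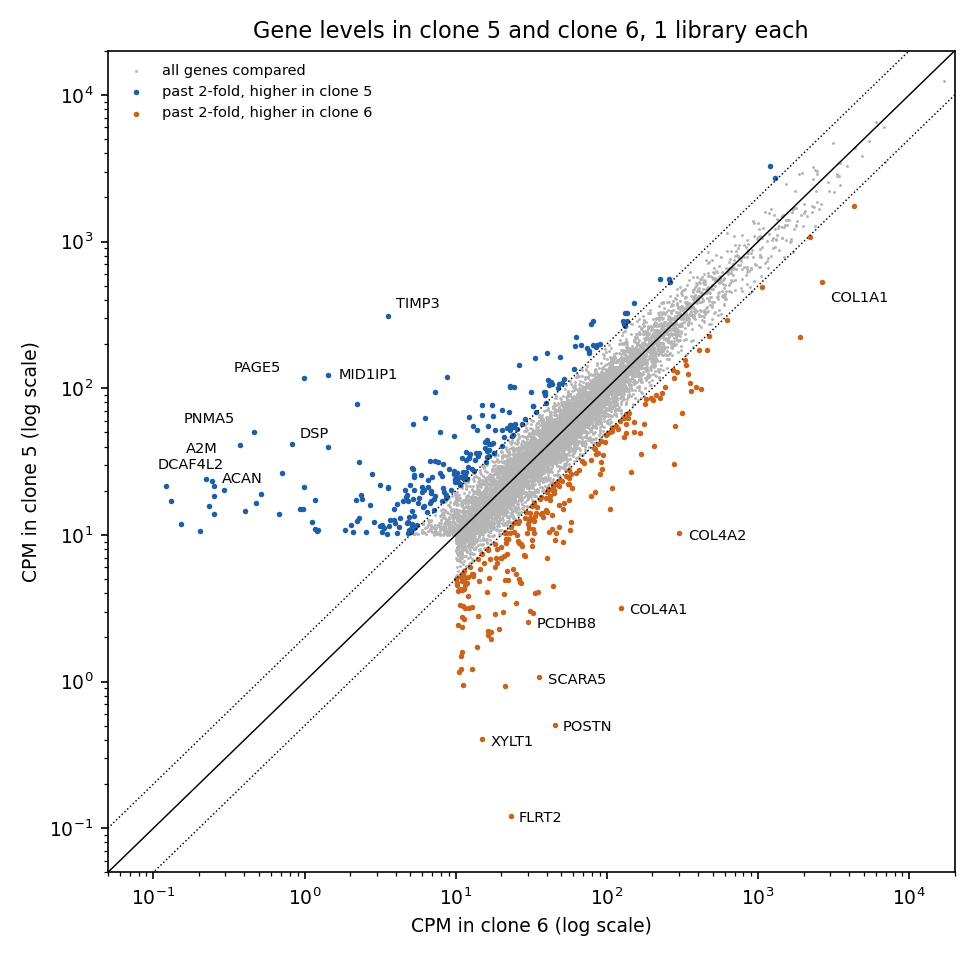
Level of each gene compared in clone 6 (horizontal axis, CPM, log scale) and clone 5 (vertical axis, CPM, log scale), with equality as a solid line and 2-fold as dotted lines. Most of the 10019 genes lie between the dotted lines, while TIMP3, PAGE5 and MID1IP1 stand above them and COL4A1, POSTN and FLRT2 below.

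The widest gaps were close to on-off. Among the 12 protein-coding genes that stood furthest on the side of clone 5, TIMP3 (ENSG00000100234, chromosome 22 from 32801701 to 32863043), the tissue inhibitor of metalloproteinases that binds to the matrix, had 39485 counts in parental cells, 246 in clone 1, 32901 in clone 5 and 350 in clone 6. The parental library and clone 5 were high and clones 1 and 6 low, and clone 5 was 86.9-fold above clone 6 (log2 ratio 6.44, interval 6.29 to 6.60). Outside the 12, DSP (ENSG00000096696, chromosome 6 from 7541575 to 7586717) encodes desmoplakin, the protein that ties desmosomes to keratin filaments. It followed the same order as TIMP3 with 4780, 60, 4435 and 81 counts (log2 ratio 5.66, interval 5.35 to 6.00).

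A second kind of gene was high in clone 5 alone of the 4 libraries. A2M, which encodes the protease trap alpha-2-macroglobulin (ENSG00000175899, chromosome 12 from 9067664 to 9116229), had 15 counts in parental cells, 40 in clone 1, 4384 in clone 5 and 37 in clone 6. ACAN (ENSG00000157766, chromosome 15 from 88803443 to 88875354), which encodes aggrecan, the large proteoglycan of cartilage, had 21, 13, 2472 and 24 counts. The other 3 libraries were below 0.4 CPM for both genes, against 41.1 CPM of A2M and 23.2 CPM of ACAN in clone 5. PLBD1, which encodes a phospholipase B-like protein, had 153 and 109 counts in the parental and clone 1 libraries, 2562 in clone 5 and 22 in clone 6.

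PAGE5, SSX1 and PAGE1, cancer-testis antigens of the X chromosome, formed another kind. PAGE5 (ENSG00000158639, chromosome X from 55220355 to 55224108) had 1410 counts in parental cells, 8295 in clone 1, 12568 in clone 5 and 98 in clone 6, so that clone 6 alone was near 1 CPM. SSX1 had 433, 696, 2293 and 25 counts, and PAGE1 had 967, 10662, 1964 and 25. These families hold near-identical copies between which reads can be split, so the single gene within a family is uncertain.

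The remaining genes of the 12 were ZSCAN18, a zinc finger gene, PNMA5, a gene derived from a retroelement on chromosome X, MID1IP1, a regulator of fat synthesis, MUC15, a membrane mucin, and DCAF4L2, a WD-repeat gene. In each of them clone 5 was highest, the parental library came next, and both clone 1 and clone 6 were lower. MID1IP1, for example, had 1432 counts in parental cells, 14 in clone 1, 13220 in clone 5 and 141 in clone 6 (log2 ratio of clone 5 to clone 6 6.44, interval 6.20 to 6.69). The log2 ratio was 6.76 for PNMA5, 7.02 for ZSCAN18, 6.28 for MUC15 and 7.48 for DCAF4L2, whose lower clone had only 12 counts and whose interval ran from 6.67 to 8.43.

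On the side of clone 6, FLRT2 (ENSG00000185070, chromosome 14 from 85530144 to 85654426), a transmembrane protein that guides cells and axons, had 3633 counts in parental cells, 1077 in clone 1, 13 in clone 5 and 2280 in clone 6. Clone 5 was the only library without a clear FLRT2 level (log2 ratio -7.57, interval -8.48 to -6.79). TNS1, which encodes tensin 1, a link between integrins and actin, was likewise low in clone 5 alone, with 3579, 3291, 100 and 2079 counts. POSTN (ENSG00000133110, chromosome 13 from 37562583 to 37598844), which encodes the secreted matrix protein periostin, had 1318, 11, 54 and 4457 counts, so that clones 1 and 5 were both far below the parental library and clone 6 was above it (log2 ratio -6.48, interval -6.89 to -6.09). SCARA5, a ferritin receptor, had 3310, 277, 114 and 3530 counts, and XYLT1, which starts the sugar chains of proteoglycans, had 240, 5, 43 and 1467.

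The remaining genes of the 12 on that side were COL4A1, COL4A2 and PCDHB8, described below, and KANK4, TMEM246, TPD52L1 and GFRA1. The gene GFRA1, which encodes a receptor subunit for the growth factor GDNF, had 918 counts in parental cells, 3638 in clone 1, 477 in clone 5 and 4342 in clone 6. Clones 1 and 6 stood close together there, and clone 5 was below the parental library. The log2 ratio was -3.30 for GFRA1, -3.36 for TPD52L1, -3.46 for KANK4 and -3.55 for TMEM246.

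**Figure D2:**
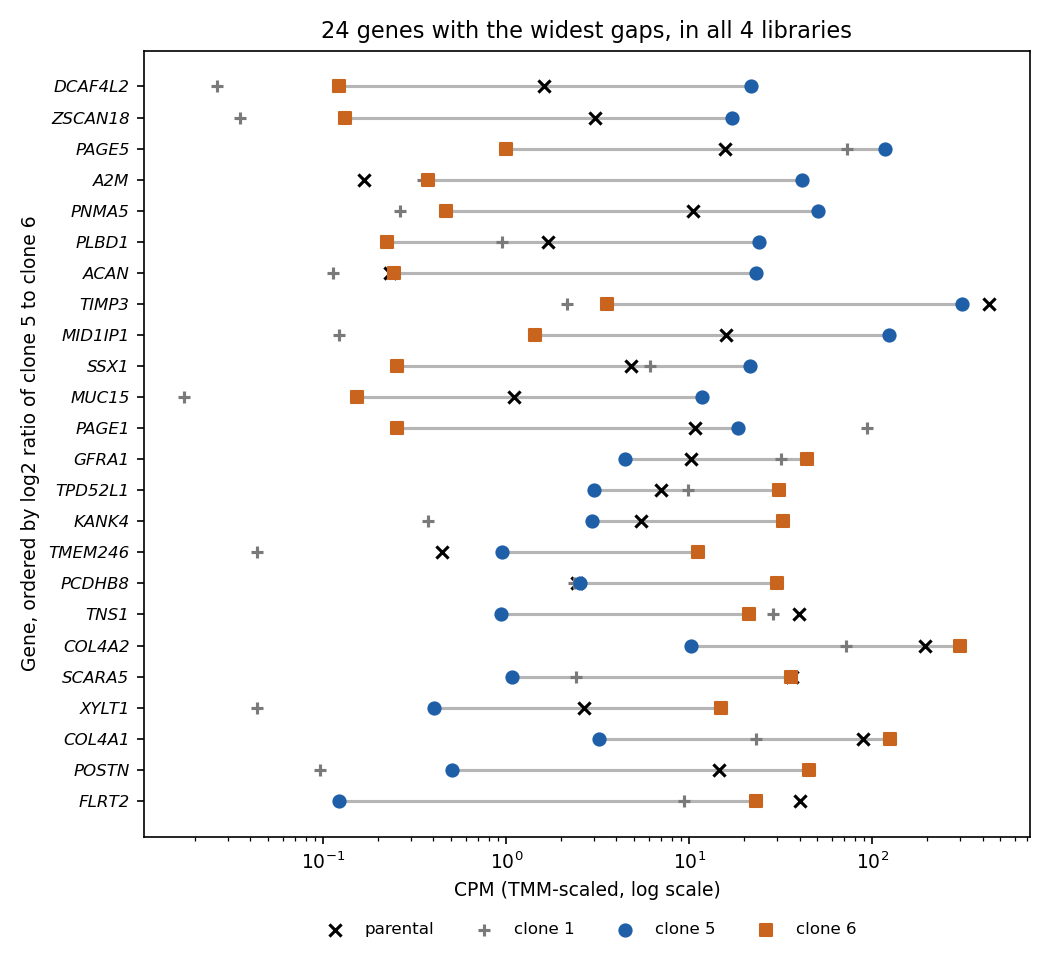
CPM (log scale) of the 12 protein-coding genes a direction with the widest gap between clone 5 (circles) and clone 6 (squares), with the parental library (x) and clone 1 (+). The grey bar joins clones 5 and 6, and for TIMP3 the parental library lies next to clone 5 while for SCARA5 it lies next to clone 6.

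COL4A1 and COL4A2, the genes of the main type IV collagen chains of basement membranes, lie head to head on chromosome 13 and are read in opposite directions from the sequence between them. COL4A1 (ENSG00000187498, from 110148963 to 110307149, minus strand) had 8026 counts in parental cells, 2649 in clone 1, 341 in clone 5 and 12248 in clone 6. COL4A2 (ENSG00000134871, from 110305812 to 110513027, plus strand) had 17564, 8283, 1091 and 29728. Both genes had the same order of libraries, with clone 5 lowest and clone 6 highest, and their log2 ratios were -5.28 (interval -5.44 to -5.12) and -4.88 (interval -4.97 to -4.79). The 126 bases between the starts that RefSeq lists for the pair (GRCh38.p14, chr13:110307158-110307283, plus strand) are printed because both genes depend on them as promoter, with each CG dinucleotide in capitals, 20 in all.
COL4A1 to COL4A2: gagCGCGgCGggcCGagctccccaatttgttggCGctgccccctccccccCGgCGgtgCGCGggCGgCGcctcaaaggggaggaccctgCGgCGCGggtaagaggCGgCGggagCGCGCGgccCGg

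The clustered protocadherins were the gene family with the largest share of members past 2-fold among the 39 lists of genes counted. Their 53 genes lie side by side on chromosome 5 in an alpha, a beta and a gamma cluster, and each beta gene is a single exon with its own promoter. Of 24 members compared, 20 (83.3%) were past 2-fold, beside 4.91% of all genes. Of these, 16 were higher in clone 6 and 4 in clone 5, and the median log2 ratio of the list was -1.57. The median was -1.03 with a minimum of 1 CPM, and -0.19 with the median of each gene's window of 25 neighbors subtracted, a step added after seeing the data. Most genes of the window that holds the beta cluster are protocadherins themselves. The beta cluster went 1 way. Of its 16 genes 12 were compared, 10 of these were past 2-fold and all 10 were higher in clone 6, with a median of -2.60. PCDHB8 (ENSG00000120322, from 141177790 to 141180529) had 220 counts in parental cells, 269 in clone 1, 271 in clone 5 and 2972 in clone 6, which put clone 6 apart from 3 libraries that lay close together. PCDHB16 had 230, 596, 432 and 3466 counts, PCDHB10 had 93, 283, 209 and 1683, and PCDHB9 had 94, 261, 124 and 1044. The difference was smaller at the gamma end of the cluster, with log2 ratios of -1.21 for PCDHB13, -0.71 for PCDHB14 and -0.75 for PCDHB15. Summed over the beta cluster, the level was 39.9 CPM in parental cells, 54.7 in clone 1, 100 in clone 5 and 369 in clone 6.

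The direction turned within the gamma cluster. Its first genes were higher in clone 6, with log2 ratios of -1.59 for PCDHGA1, -1.56 for PCDHGA2, -2.64 for PCDHGA3 and -2.53 for PCDHGA4. Further along, PCDHGB5 (1.64), PCDHGA9 (2.54), PCDHGB7 (1.19) and PCDHGC3 (1.82) were higher in clone 5. PCDHGC3, the gamma gene with the most counts, had 8119 counts in parental cells, 14406 in clone 1, 30583 in clone 5 and 8026 in clone 6. Of 12 gamma genes compared, 4 were past 2-fold on the side of clone 5 and 6 on the side of clone 6, and all 15 alpha genes were under 10 CPM in both clones. Alpha and gamma genes share their constant last exons within each cluster, so reads there can be split between members and single values of those clusters are uncertain. A split of reads between similar beta genes was not tested, so single beta values are uncertain too.

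Promoters of the beta genes are printed for their shared element. Clustered protocadherin promoters are known to hold a conserved element around the letters CGCT. The 9-base word most widely held by the RefSeq promoter windows of the beta genes (250 bases before to 50 after each start), GGTGGCGCT on either strand, was in 13 of 14 of them, by the way it was chosen, against 0 of 11 alpha and 0 of 18 gamma windows and 176 of 35116 windows in all (0.501%). PCDHB1, the beta gene whose window does not hold it, had 3 counts in clone 5 and 0 in clone 6. The word stands in capitals in the lines below (GRCh38.p14, plus strand), which run from the gene with the widest gap to one of the smallest.
PCDHB8, chr5:141177768-141177816: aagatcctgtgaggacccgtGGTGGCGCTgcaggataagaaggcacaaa
PCDHB16, chr5:141182301-141182349: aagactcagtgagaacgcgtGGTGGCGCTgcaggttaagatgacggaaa
PCDHB5, chr5:141135170-141135218: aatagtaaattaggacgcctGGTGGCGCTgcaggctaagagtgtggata
PCDHB13, chr5:141213856-141213904: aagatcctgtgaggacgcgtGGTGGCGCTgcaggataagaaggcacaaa
PCDHB15, chr5:141245305-141245353: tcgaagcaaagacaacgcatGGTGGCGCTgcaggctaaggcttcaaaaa
Genes with a wide gap and genes with a narrow one held the same word.

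**Figure D3:**
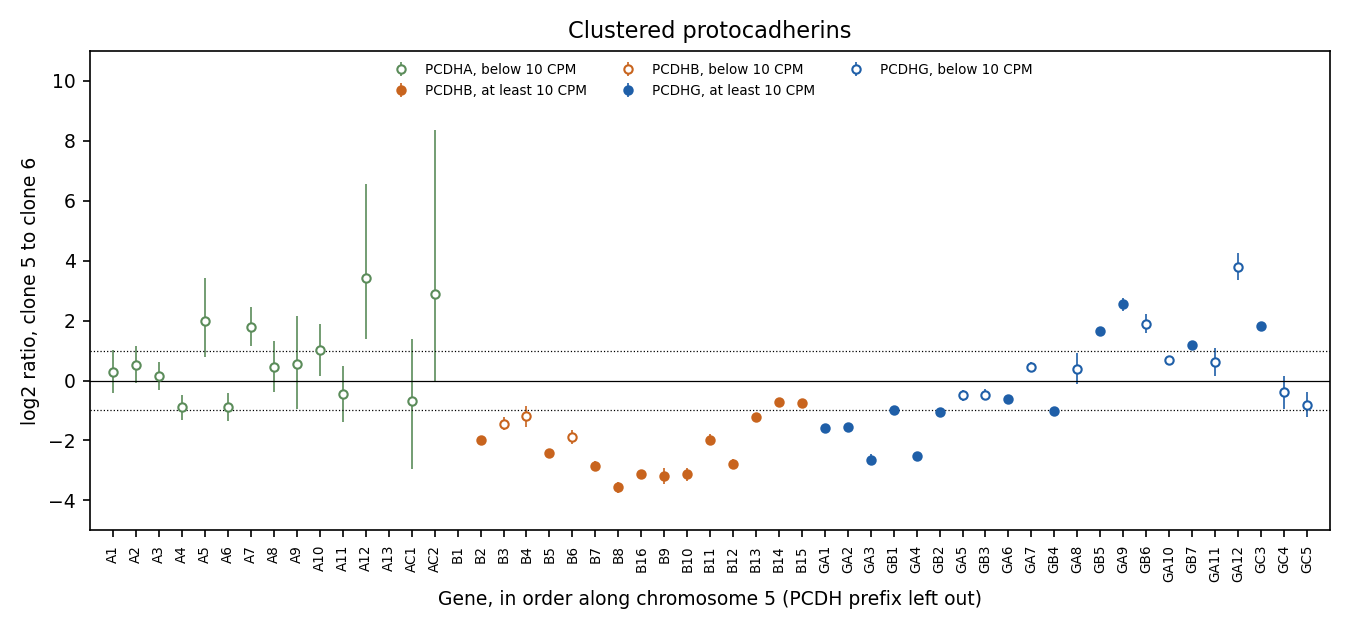
Log2 ratio of clone 5 to clone 6 (vertical axis) for the clustered protocadherins in their order along chromosome 5, with exact 95% counting intervals. Filled points are genes with at least 10 CPM in a clone, open points are below it, and PCDHA13 and PCDHB1 are not drawn because clone 6 had 0 counts. The beta genes drawn lie below 0, and the gamma genes pass from mostly below to mostly above 0 before PCDHGC4 and PCDHGC5.

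Collagens and other matrix genes differed in both directions. Of 23 collagen genes compared, 7 (30.4%) were past 2-fold, beside 4.91% of all genes. Of these, 3 were higher in clone 5 and 4 in clone 6. The median of the list, -0.03, turned to 0.03 with library size scaling. COL1A1 (ENSG00000108821, chromosome 17 from 50183289 to 50201632), the main chain of fibrillar type I collagen, had 713 CPM in parental cells, 275 in clone 1, 534 in clone 5 and 2647 in clone 6, 4.96-fold higher in clone 6 than in clone 5. COL21A1 also lay on that side, with 541 counts in clone 5 and 1649 in clone 6. On the other side COL11A2, a cartilage collagen, had 178 and 194 counts in the parental and clone 1 libraries, 8185 in clone 5 and 1725 in clone 6. COL4A4 had 1415 against 484 counts, and COL5A1, which regulates fibril width, had 2732 CPM against 1293.

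Among 30 other matrix genes compared, 9 (30%) were past 2-fold, beside 4.91% of all genes. Of these, 7 were higher in clone 5 and 2 in clone 6. THBS1, which encodes the adhesive glycoprotein thrombospondin 1, had 69.0 CPM in parental cells, 550 in clone 1, 3301 in clone 5 and 1192 in clone 6. EMILIN1, a glycoprotein of elastic fibers, had 24.9, 5.51, 225 and 62.7 CPM. LTBP1, which holds latent TGF-beta in the matrix, had 1131 counts in clone 5 and 120 in clone 6 (log2 ratio 3.12, interval 2.85 to 3.41). ACAN, EFEMP1, IGFBP7 and SPOCK1 made up the rest of the 7. FBLN5, an elastic fiber protein, went the other way with 1596 counts in parental cells, 11571 in clone 1, 1607 in clone 5 and 10324 in clone 6, so that clones 1 and 6 stood together. LAMA4, a laminin chain of vessel walls, was the other gene higher in clone 6 (log2 ratio -1.01).

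Of 28 matrix proteases and inhibitors compared, 8 (28.6%) were past 2-fold, beside 4.91% of all genes. On the side of clone 5 were 5 of them, TIMP3, ADAM19, SERPINB5, SERPINE2 and MMP17. Higher in clone 6 were ADAMTS1, a protease that cuts proteoglycans, with 99.3 CPM in clone 5 and 418 in clone 6, the angiogenesis inhibitor SERPINF1 with 92.6 and 230, and PLAT, the tissue plasminogen activator, with 183 and 409. Of 16 integrin genes, 4 (25%) were past 2-fold. The collagen receptors ITGA11 (log2 ratio 1.80) and ITGA10 (1.37) and the leukocyte subunit ITGB2 (2.37) were higher in clone 5 and the laminin receptor ITGA7 (-2.37) in clone 6. ITGA11 had 3244 counts in parental cells, 6271 in clone 1, 29239 in clone 5 and 7791 in clone 6. Of 24 EMT transcription factors and mesenchymal genes, 2 (8.33%) were past 2-fold, too few to be set apart from 4.91%. These were POSTN and LOX, the enzyme that crosslinks collagen, at 6920 counts in clone 5 against 1734 in clone 6.

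Of 11 tight junction and desmosome genes compared, 3 (27.3%) were past 2-fold, beside 4.91% of all genes. Besides DSP, these were the tight junction adhesion molecules JAM3 (log2 ratio 1.84) and JAM2 (-2.05), which differed in opposite directions. PCDH9, a protocadherin outside the clusters (-1.29), was the 1 member past 2-fold of 18 cadherins and catenins (5.56%), close to 4.91%. KRT80 (1.06) was the 1 member of 7 keratins (14.3%), too few to be set apart from that share. None of 16 breast stem cell and lineage markers and none of 7 HOX genes was past 2-fold, counts too small to be set apart from 4.91%. CD44, the adhesion receptor used to mark breast cancer stem cells, had 785 CPM in clone 5 and 801 in clone 6, and the keratin gene KRT8 had 806 and 525.

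Cancer-testis antigens had 16 of 150 genes compared, of which 6 (37.5%) were past 2-fold, beside 4.91% of all genes. PAGE5, SSX1, PAGE1 and MAGEA11 were higher in clone 5 and MAGEA1 and CTAG2 in clone 6. MAGEA1 had 901 counts in parental cells, 3196 in clone 1, 431 in clone 5 and 3307 in clone 6. CTAG2 had 1738, 118, 2994 and 9093. CTAG2 was above 10 CPM in both clones, with 28.1 CPM in clone 5 and 92.2 in clone 6, and the other 10 genes compared were within 2-fold. The median of the list was -0.17 and turned to 0.16 with a minimum of 1 CPM. Both the MAGE and the PAGE, SSX and CTAG families hold near-identical copies, and the split of reads among those copies was not tested.

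Of 38 interferon-stimulated genes compared, 5 (13.2%) were past 2-fold, beside 4.91% of all genes. All 5 were higher in clone 5, as were 2.45% of all genes, while the list's median was 0.02. OASL, OAS1 and OAS2 encode sensors of double-stranded RNA or their relatives. OASL had 275 CPM in parental cells, 34.2 in clone 1, 194 in clone 5 and 61.1 in clone 6 (log2 ratio 1.67, interval 1.63 to 1.71). OAS1 had 2.05, 1.01, 11.5 and 3.62 CPM and OAS2 had 5.91, 14.1, 26.5 and 10.2. IFIT2 (log2 ratio 1.29) and ISG15 (1.07) were the others. Of 20 MHC and antigen processing genes, 3 (15%) were past 2-fold. All 3 were higher in clone 5, namely the class II genes HLA-DPA1 (2.13) and HLA-DPB1 (1.26) and their chaperone CD74 (7.98-fold). HLA-DPA1 had 180 counts in parental cells, 1669 in clone 1, 2336 in clone 5 and 494 in clone 6, and CD74 had 224, 226, 1856 and 215.

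Cytokines and chemokines had 14 members compared, of which 5 (35.7%) were past 2-fold, beside 4.91% of all genes. IL7R, the interleukin 7 receptor, had 2784 counts in parental cells, 1216 in clone 1, 8236 in clone 5 and 1465 in clone 6. The chemokine gene CCL5 had 5096, 2085, 3904 and 1162, and IL6, which was far below the 19846 counts of parental cells in both clones, had 1237 and 543. TNFAIP3, the brake on NF-kappaB (log2 ratio -1.26), and IL32 (-1.03) were higher in clone 6. The chemokine genes CXCL14 and CXCL13, chosen after their values were seen, went opposite ways, with 2830 counts in clone 5 against 70 in clone 6 for CXCL14 and 222 against 1606 for CXCL13.

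In the Wnt pathway 7 of 26 genes compared (26.9%) were past 2-fold, beside 4.91% of all genes. Of these, 5 were higher in clone 5 and 2 in clone 6. LGR6, a receptor for R-spondins, which enhance Wnt signals, had 246 counts in parental cells, 1567 in clone 1, 10109 in clone 5 and 724 in clone 6, 12.9-fold higher in clone 5 than in clone 6. DKK1, a secreted Wnt antagonist, had 74, 4159, 5001 and 955, and the ligand WNT9A and the antagonists NOTUM and DKK3 were also higher in clone 5. The ligand WNT6 (log2 ratio -2.52) and the antagonist NKD2 (-1.54) were higher in clone 6. Ligands and antagonists were thus on both sides.

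Of 24 Notch and Hedgehog genes compared, 4 (16.7%) were past 2-fold, beside 4.91% of all genes. GAS1, a Hedgehog co-receptor (log2 ratio 2.16), and the Notch target HES4 (1.27) were higher in clone 5. GLI1, a transcription factor and target of Hedgehog signals (-1.95), and DTX4, a Notch regulator (-1.78), were higher in clone 6. GLI1 had 66.8 CPM in parental cells, 6.94 in clone 1, 5.66 in clone 5 and 21.8 in clone 6. NOTCH1 had 72.2 CPM in clone 5 and 91.4 in clone 6. In the TGF-beta and BMP pathway, 4 of 29 genes (13.8%) were past 2-fold. The ligand BMP4 (1.22), the receptor TGFBR1 (1.20) and the feedback gene PMEPA1 (1.21) were higher in clone 5. The mediator SMAD1 was higher in clone 6 (2179 counts against 4032). TGFB1 was within 2-fold, with 372 CPM in clone 5 and 494 in clone 6. LCN2, the gene of lipocalin 2, had 2 counts in each of these clones, and the hemidesmosome collagen gene COL17A1 had 35 counts in clone 5 and 8 in clone 6, less than 1 CPM in both.

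Growth factor receptors and ligands included 18 genes compared, of which 3 (16.7%) were past 2-fold, beside 4.91% of all genes. NTRK2, the receptor of brain-derived neurotrophic factor, was higher in clone 5 (log2 ratio 2.46), and FGFR4 (-2.15) and PDGFRA (-1.33) in clone 6. FGFR4 had 1816 counts in parental cells, 43 in clone 1, 1104 in clone 5 and 4518 in clone 6. Axon guidance genes had 38 members compared, of which 5 (13.2%) were past 2-fold. SEMA4D (3.23), NTN1 (2.23), EPHA2 (1.31), PLXNA2 (1.22) and NRP2 were higher in clone 5 and none in clone 6. SEMA4D, a semaphorin, had 541, 2214, 1165 and 115 counts in parental cells, clone 1, clone 5 and clone 6, which made clone 6 the lowest. Of 16 nitric oxide and arginine genes, 2 (12.5%) were past 2-fold, both higher in clone 5. GUCY1A1, a subunit of the nitric oxide receptor soluble guanylate cyclase, had 2233 counts against 354 (2.54). AZIN2, an inhibitor of the proteins that block polyamine synthesis (1.30), was the other gene past 2-fold. Neuronal and synaptic genes had 2 of 16 (12.5%) past 2-fold, GABRE (-1.28) and SNAP25 (-1.02), both higher in clone 6. With 2 such genes each, neither this list nor that of nitric oxide and arginine genes could be set apart from 4.91%.

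Immediate-early genes switch on within minutes of a growth or stress signal. Of 33 compared, 5 (15.2%) were past 2-fold, beside 4.91% of all genes, with clone 6 as the higher clone in 4 of the 5. FOS (ENSG00000170345, chromosome 14 from 75278774 to 75282230), a subunit of the AP-1 transcription factor, had 36.5 CPM in parental cells, 1093 in clone 1, 102 in clone 5 and 390 in clone 6. EGR1 had 65.0, 1169, 95.3 and 360 CPM, FOSB had 3.77, 159, 14.8 and 39.7, and the mRNA decay factor ZFP36 had 12.9, 122, 21.5 and 48.3. The order of the libraries was the same for these 4 genes, with the parental library lowest and clone 1 highest. FOSL1, a slower member of the FOS family, was the exception with 24.6 CPM in clone 5 and 10.8 in clone 6. FOS, FOSB and ZFP36, but not EGR1, lie in stretches of chromosomes 14 and 19 that were lower in clone 5 as a whole, described below. The median of the list was -0.19. It was -0.03 with the median of each gene's chromosome window subtracted, a step added after seeing the data. What part these stretches had was not tested.

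Of 33 NRF2, glutathione and metallothionein genes compared, 6 (18.2%) were past 2-fold. AKR1C1 (log2 ratio -2.23), AKR1C2 (-1.54) and AKR1C3 (-1.38), which encode aldo-keto reductases side by side on chromosome 10, were higher in clone 6. So was FTL (-1.29), the light chain of the iron store ferritin. MT1E (2.13) and MT2A (1.09), metallothioneins that bind zinc, were higher in clone 5. The 3 reductase genes, MT1E and FTL have near-identical paralogs or pseudogenes, so their single values are uncertain. CDKN1A (ENSG00000124762, chromosome 6 from 36676460 to 36687339), which encodes the cell cycle inhibitor p21, had 31.5 CPM in parental cells, 55.2 in clone 1 and 102 in clone 5, while clone 6 had 2272 counts against 10824 in clone 5. CDKN1A was the 1 gene past 2-fold of 16 G1 cyclins and CDK inhibitors (6.25%) and of 25 p53 targets (4%). These shares are close to the 4.91% of all genes.

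Of 37 genes of the integrated stress response and amino acid supply, 2 (5.41%) were past 2-fold, close to the 4.91% of all genes. SLC7A5, an amino acid transporter, and GPT2, an alanine aminotransferase, were higher in clone 5 (1.14 each). SLC7A5 had 2224 CPM in parental cells, 293 in clone 1, 200 in clone 5 and 90.5 in clone 6, so that the gap between these clones was small beside that to the parental cells. Of 38 glycolysis and hypoxia genes, 2 (5.26%) were past 2-fold. The glucose transporter gene SLC2A1 (1.23) was higher in clone 5 and the hexokinase gene HK2 (-1.35) in clone 6. HSPB8 (1.47) was the 1 member past 2-fold of 17 heat shock genes (5.88%). Both shares are close to that of all genes.

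None of 27 ER chaperones, 33 cholesterol synthesis genes, 47 DNA replication genes and 52 mitosis genes was past 2-fold, beside 4.91% of all genes compared. Each list was too small for the lack of such a gene to be set apart from that share. The replication gene MCM7 had 242 CPM in clone 5 and 238 in clone 6, and the mitosis gene TOP2A had 235 and 252. The chaperone gene CALR had 2202 and 1766 CPM. Several lists were shifted as a whole by less than 2-fold. Of the 27 ER chaperones 23 were higher in clone 5, with a median of 0.19, and of the 52 mitosis genes 41 were lower in it, with a median of -0.22. Of 80 ribosomal protein genes 75 were lower in clone 5, with a median of -0.48, and 68 of 76 nuclear-encoded respiratory chain genes were lower in it, with a median of -0.34, beside -0.03 over all genes compared. RPS12, RPS16 and RPL22L1 (3.75% of their list), and NDUFB1 and UQCRFS1 (2.63%), were the members past 2-fold, all higher in clone 6. All 13 mitochondrially encoded genes were lower in clone 5 as well, with a median of -0.35. By exon length, the median over all genes compared was -0.10 in the fifth of genes with the shortest exons and 0.00 in the fifth with the longest. With the dependence on exon length removed, a step chosen after seeing the data, the medians were -0.42 for ribosomal proteins, -0.27 for respiratory chain genes and -0.11 for mitochondrially encoded genes.

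Zinc finger genes of chromosome 19 had 84 members compared, of which 6 (7.14%) were past 2-fold, beside 4.91% of all genes. The median of the list was -0.32, but 5 of the 6 were higher in clone 5. These were ZNF677 (5.71), ZNF208 (2.33), ZNF626 (1.52), ZNF43 (1.20) and ZNF486 (1.12), and ZNF581 (-1.03) was the exception. With the median of each gene's chromosome window subtracted, a step added after seeing the data, the median of the list was 0. ZNF208 had 59 counts in parental cells, 2 in clone 1, 1123 in clone 5 and 207 in clone 6, and ZNF626 had 107, 0, 1074 and 347. Clone 5 had the highest level of both. Of 3 histone genes compared, too few for a share, HIST1H2BK (1.63) and HIST1H1C (1.36) were higher in clone 5. Of 17 imprinted genes, 1 (5.88%) was past 2-fold, PLAGL1 (-1.08), which was higher in clone 6. That share is close to 4.91%.

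**Figure D4:**
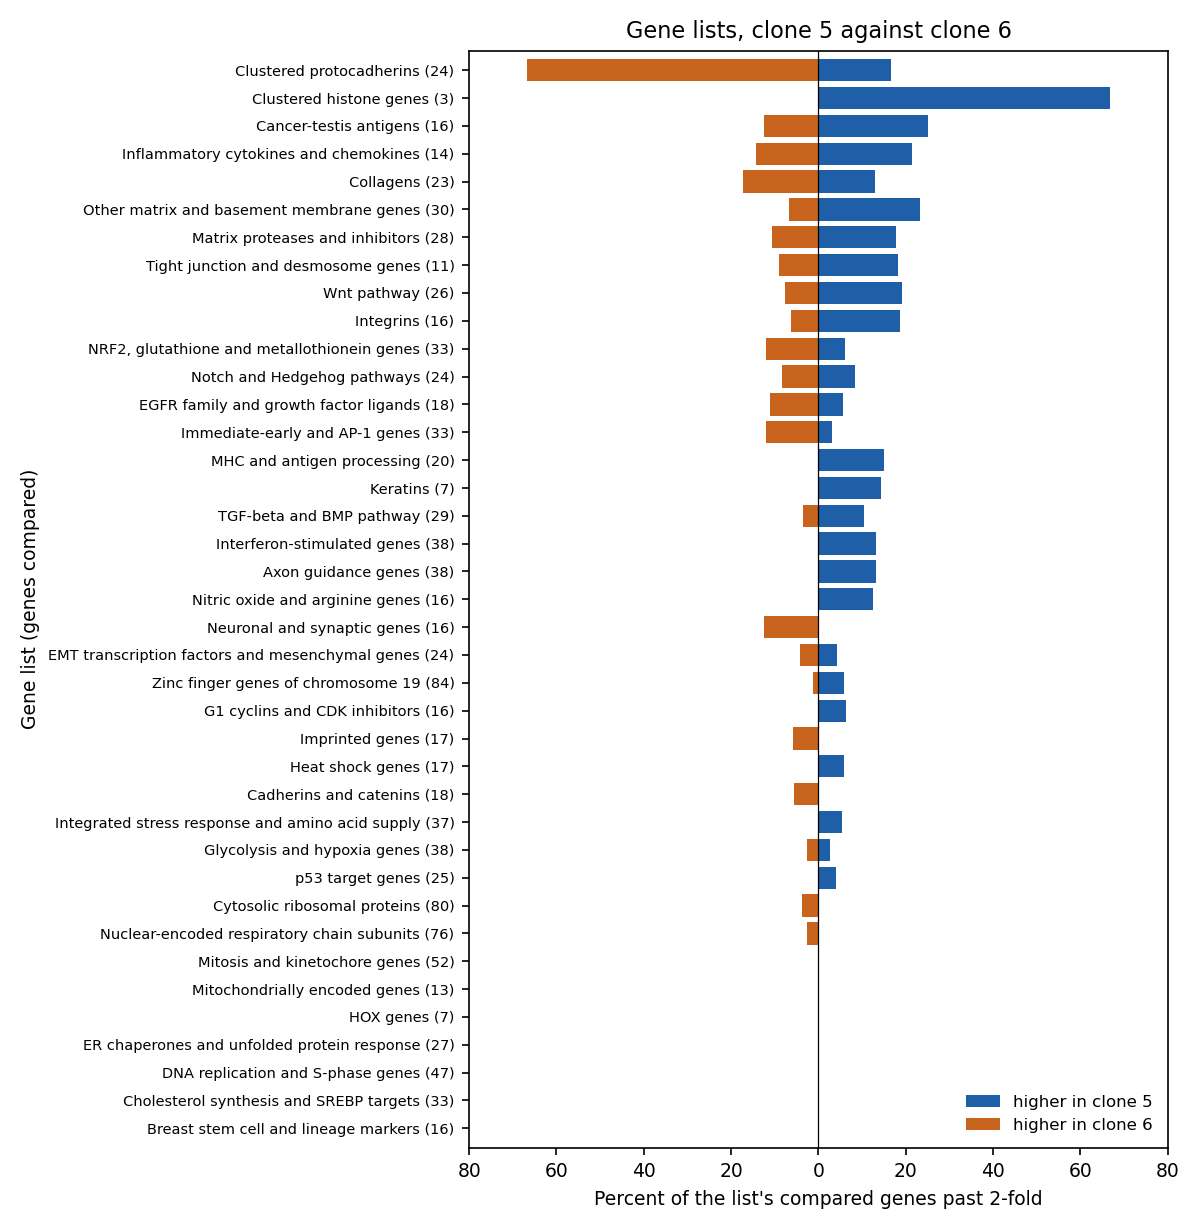
Percent of each list's compared genes past 2-fold, with genes higher in clone 5 to the right and genes higher in clone 6 to the left of 0, and the number of genes compared in parentheses. Clustered protocadherins have 16 of 24 genes on the side of clone 6, and the lists at the foot have none past 2-fold, against 4.91% of all genes compared.

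Along the chromosomes, the ratio shifted over long stretches. Genes compared were put in order and cut into 388 windows of 25 genes, and the window median was above 0.3 in 36 and below -0.3 in 28 of them. At least 3 such windows in a row formed 9 runs. The widest shift was on the long arm of chromosome 14 from 60734742 to 105181323, where 165 of 175 genes were lower in clone 5, with a median of -0.67. Within that run the median of clone 5 against the parental library was -0.54 and that of clone 6 was 0.05, so that clone 5 was the library that stood apart, and FLRT2, FBLN5, FOS and NDUFB1 lie in it. On the long arm of chromosome 6, from 110874770 to 154510659, 88 of 100 genes were lower in clone 5, with a median of -0.61. There clone 5 was below the parental library (-0.25) and clone 6 above it (0.37). This run holds TPD52L1, LAMA4, RPS12, TNFAIP3 and PLAGL1.

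Of the other runs, 2 lie on chromosome 19, from 16661127 to 45692569 and from 47349281 to 54249003, with medians of -0.37 and -0.41. The other 5 had higher levels in clone 5. They were chromosome 1 from 631074 to 26946862 (0.39), chromosome 6 from 32948613 to 43687791 (0.36), chromosome 9 from 74981020 to 101410660 (0.35) and from 128275379 to 137046203 (0.43), and chromosome 16 from 66508003 to 89566828 (0.41). In the runs on chromosomes 1, 9 and 16 the median of clone 6 against the parental library was between -0.32 and -0.43 and that of clone 5 between -0.04 and 0.09. Against clone 1, clone 5 was the one further away for chromosome 16 and the second run of chromosome 9. There clone 6 was at -0.11 and -0.09 and clone 5 at 0.25 and 0.30. CDKN1A, HLA-DPA1, HLA-DPB1 and COL11A2 lie in the run of chromosome 6 with higher levels in clone 5, and ISG15, HES4 and EPHA2 in that of chromosome 1. GAS1, NTRK2, SEMA4D and TGFBR1 lie in the first run of chromosome 9 and COL5A1 in the second. FOSB and ZFP36 lie in the first run of chromosome 19. The number of DNA copies was not measured in these files, and its part in the runs was not tested.

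Inside the runs 8.90% of 1225 genes were past 2-fold, 47 higher in clone 5 and 62 higher in clone 6. Outside them 4.37% of 8773 genes were, 198 and 185. The runs were picked by the ratios that also make the 2-fold calls. A higher share inside them is favored by that choice, so nothing is read from it. The lowest window of all, at -1.59, was the one of the protocadherin cluster, and the window that ends with COL4A2 on chromosome 13 had a median of -0.62. Among the genes compared, those past 2-fold in the same direction were also next to each other in 34 stretches that held 85 of the 492. Genes below 10 CPM in both clones were passed over. How many such neighbors a random order would give was not worked out, so the count is not read as clustering. The longest was that of 10 beta protocadherins from PCDHB2 to PCDHB13, which passes over PCDHB3, PCDHB4 and PCDHB6. Of the 34 stretches 25 had 2 genes. They included APOE and APOC1, apolipoprotein genes of chromosome 19, which had 224 and 55.2 CPM in clone 5 and 1899 and 282 in clone 6.

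**Figure D5:**
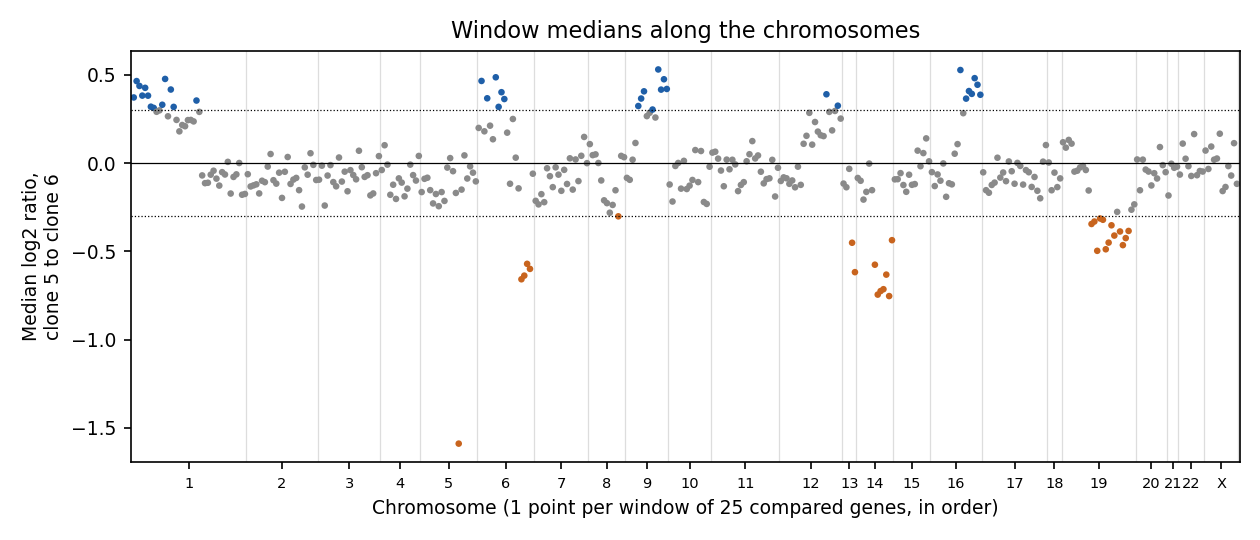
Median log2 ratio of clone 5 to clone 6 in windows of 25 genes, in order along chromosomes 1 to 22 and X. Dotted lines mark 0.3 and -0.3, and runs of windows beyond them stand out on chromosomes 1, 6, 9, 14, 16 and 19, while the window near -1.59 on chromosome 5 is the protocadherin cluster.

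The parental library and clone 1 were set beside the genes that differed. Both clones and these references are single libraries, and each gene's values share the same parental library, so the counts describe levels only. Of the 245 genes higher in clone 5, the parental level was nearer to the lower clone, clone 6, for 157 and nearer to clone 5 for 88. Of the 247 genes higher in clone 6 it was nearer to the lower clone, clone 5, for 161 and nearer to clone 6 for 86. Clone 1 gave 151 and 94 for the first group and 163 and 84 for the second. The genes were chosen for a high level in one clone, which by itself favors a reference near the lower clone, so nothing is read from these counts. Within 2-fold of the lower clone alone lay the parental level of 78 of the 245 and 89 of the 247 genes. The parental level lay between those of the clones for 96 and 90 genes. In 22 genes clones 5 and 6 were on opposite sides of the parental library, each past 2-fold by its whole interval, with clone 5 above in 14 and clone 6 above in 8. TP73, a relative of p53, had 412 counts in parental cells, 1552 in clone 5 and 40 in clone 6. APOE, which carries lipids, had 668 CPM in parental cells, 566 in clone 1, 224 in clone 5 and 1899 in clone 6.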

How the data were processed

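Libraries of poly(A)-enriched mRNA from 4 SUM159 lines were read as paired ends. According to the submitters' processing notes, GRCh38 and the tools Trimmomatic 0.36, STAR 2.5.2b and Subread 1.5.2 (featureCounts) were used. The strand setting and annotation release are not given in the sources used here. The values deposited by the authors are raw counts, 1 per gene and library. Of 57500 gene identifiers, 56898 had a symbol in GENCODE release 29, whose coordinates are printed.

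Counts were scaled with edgeR 4.0.16 (TMM over all 4 libraries, R 4.3.3). CPM and log2 ratios were computed in Python 3.11.15 (scipy 1.17.1), with exact 95% intervals tested on simulated data. A ratio of 1 library to another compares those libraries, so no p-value was computed and calls are of size only. A floor of 3 counts corresponds to 0.0281 CPM in clone 5 and 0.0304 CPM in clone 6. The genes named are NOS2, LCN2, TGFB1, GLI1, NOTCH1 and COL17A1, the 12 protein-coding genes a direction with the interval bound furthest from equality, and for each of 39 lists up to 4 members past 2-fold by the same bound or its 2 members of highest mean CPM. Other genes named were chosen after their values were seen, as were the cell type markers' summaries. The comparison, the lists and the rule were chosen with earlier results of these data known. Genes of chromosome Y and XIST were left out. Medians against the parental and clone 1 libraries used a pseudocount of 0.1 CPM. Scaling by RLE, upper quartile or library size was tried as an alternative, as were other minimums and thresholds, loess (statsmodels 0.14.6) on level or exon length, and windows of 50 genes. Promoter and inter-start sequences are from RefSeq (GRCh38.p14). Promoter windows matched 8174 of the genes compared (81.6%) but 366 of the 492 past 2-fold (74.4%), under the 80% needed, so a comparison of promoter content between these genes is void and not given. Figures were drawn with matplotlib 3.10.9.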

Additional observations from a re-analysis of the deposited data

Results flagged for a closer look

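Genes in which clones 5 and 6 were on opposite sides of the parental library, each with its whole counting interval past 2-fold, numbered 22. The 14 of them that the rule for named genes picked, and TP73 and APOE, named after their values were seen, are given here by their log2 ratios to the parental library. With 1 library each, the difference was not tested.

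Clone 5 was above the parental library and clone 6 below it in 9 of the 14 genes. The log2 ratios of clone 5 and clone 6 to the parental library were 3.75 and -3.73 for DCAF4L2, 3.83 and -2.92 for PLBD1, and 3.43 and -2.85 for MUC15. They were 2.97 and -3.47 for MID1IP1, 2.92 and -3.97 for PAGE5, and 2.27 and -4.49 for PNMA5. SSX1 had 2.17 and -4.24, ZSCAN18 had 2.49 and -4.53, and ZNF677 had 1.63 and -4.07. TP73, outside the rule, had 1.68 and -3.49. PAGE5, PNMA5, SSX1 and MID1IP1 lie on chromosome X.

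Clone 5 was below the parental library and clone 6 above it in 5 of the 14 genes. The values for clone 5 and clone 6 were -4.85 and 1.63 for POSTN, -2.72 and 2.49 for XYLT1, and -1.30 and 1.75 for MAGEA1. TPD52L1 had -1.22 and 2.14, and GFRA1 had -1.18 and 2.12. APOE, outside the rule, had -1.58 and 1.51.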

How the results depend on the processing

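No alternative scaling moved the number of genes past 2-fold by over 1.5 times. It was 492 with RLE, 502 with upper quartile and 493 with library size scaling, under which 282 were higher in clone 5 and 211 in clone 6. A minimum of 1 CPM gave 1541 genes, 945 and 596 in these directions, and no minimum beyond 3 counts gave 6876, 4150 and 2726. With a log2 ratio above 2 or below -2 there were 135, 75 and 60. All of these count genes of lower levels or a larger ratio by construction. The other alternatives, 20 CPM, whole intervals, loess on level or exon length and, chosen after seeing the data, genes outside the runs, gave 345 to 485 genes. Of 497 values of named genes under other scalings and loess, 48 lay outside their own counting interval. Among the values of genes past 2-fold, 0 changed direction. Changes of direction in genes within 2-fold were not counted. Of 233 list medians recomputed, 26 moved by over 0.1. No paired analysis was possible because each clone has 1 library, and no replicate could be left out. Depth was not the limit for the genes compared that were past 2-fold, whose lowest count was 12. NOS2, LCN2 and COL17A1, named by rule but below 10 CPM in both clones, had few counts, and depth limits their ratios. The spread between cultures of a clone is unknown. Whether reads of near-identical genes were split was not tested.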
